A study of Mus musculus with 4 samples.

Results

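Imprinted genes are expressed from 1 parental copy, and 47 of them were examined here in whole-genome bisulfite sequencing of mouse CA1, the output field of the hippocampus. A region belonged to the set when the deposited table named it for one of these genes, or when it lay within 5000 bp of the outermost regions so named. Grb10 was left out of the set. The rule gave 1396 of the 849172 regions in the table, of which 1211 carried a member's name and 185 were flanking, and 1395 had a value in all 4 libraries. Of the 47 genes, 39 had regions of their own. The other 8 had none under their own name: Kcnq1ot1, Nnat, Zrsr1, Nap1l5, Peg13 and Mcts2 lie inside Kcnq1, Blcap, Commd1, Herc3, Trappc9 and H13 and were read through those hosts, while the regions of Rian and Mirg are named for other transcripts and fell outside the rule.

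The study compared 2 libraries labelled Tet2+f_Camk2aCre with 2 labelled Tet2+f, called the Cre libraries and the control libraries below. All came from CA1 tissue of C57B6/J mice aged 117 days, and the submitters describe the Cre tissue as Tet2 haploinsufficient in glutamatergic neurons. TET2 is a dioxygenase that oxidises 5-methylcytosine, and Camk2a drives Cre mainly in excitatory forebrain neurons, so the tissue also holds glia and other cells in which this Cre is not active. Both groups carry the Tet2+f genotype, and no group carried Cre without it. Whether replicates are different mice is not in the labels, and the p-values cover only the scatter among the 4 libraries. The values are percent methylation per region, with neither counts nor coverage. Depth is therefore unknown, and no counting interval can be given. Bisulfite conversion does not separate 5-methylcytosine from 5-hydroxymethylcytosine, and the table does not separate the parental alleles.

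Most imprinted clusters are governed by a germline differentially methylated region, a CpG-dense stretch that carries methylation on the copy from 1 parent and lacks it on the other. Such a region is set in the egg or the sperm and kept in all body cells, in part by ZFP57, a zinc finger protein that binds the hexamer TGCCGC when its CpG is methylated. In a tissue average it appears as an intermediate level. Most are methylated on the maternal copy and lie at a gene start (Peg3, Snrpn, Mest, Plagl1, Kcnq1ot1, Airn). A smaller group is methylated on the paternal copy and lies between genes (upstream of H19, between Dlk1 and Meg3, upstream of Rasgrf1). Regions at 30 to 70% in all 4 libraries are called candidate regions here.

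The promoters of 5 transcripts whose start lay in or beside such intermediate regions are printed to show the kind of sequence that carries the mark, together with that of Ube3a, an imprinted gene whose own start was unmethylated. Each window runs from 250 bases before the gene start to 50 bases after it, is written from 5′ to 3′ on the strand of the gene, and was taken from RefSeq (GRCm38.p6). Capitals mark TGCCGC or its reverse complement GCGGCA.
Plagl1: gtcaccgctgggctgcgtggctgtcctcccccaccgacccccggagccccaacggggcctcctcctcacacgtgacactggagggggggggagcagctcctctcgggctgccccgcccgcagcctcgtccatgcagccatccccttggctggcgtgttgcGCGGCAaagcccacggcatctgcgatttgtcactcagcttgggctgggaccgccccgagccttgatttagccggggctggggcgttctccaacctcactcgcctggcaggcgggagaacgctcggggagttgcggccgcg
Mest: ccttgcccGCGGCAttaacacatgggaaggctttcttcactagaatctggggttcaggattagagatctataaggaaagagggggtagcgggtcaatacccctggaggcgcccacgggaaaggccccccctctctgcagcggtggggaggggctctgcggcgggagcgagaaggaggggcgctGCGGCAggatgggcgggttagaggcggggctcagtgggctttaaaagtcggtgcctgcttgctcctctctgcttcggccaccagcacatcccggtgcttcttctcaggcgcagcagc
Nap1l5: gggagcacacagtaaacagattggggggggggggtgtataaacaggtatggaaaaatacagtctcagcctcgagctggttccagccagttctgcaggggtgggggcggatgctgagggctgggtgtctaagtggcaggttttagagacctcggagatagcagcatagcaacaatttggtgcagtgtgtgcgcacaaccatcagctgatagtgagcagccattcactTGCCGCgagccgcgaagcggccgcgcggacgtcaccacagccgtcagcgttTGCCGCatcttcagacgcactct
Nnat: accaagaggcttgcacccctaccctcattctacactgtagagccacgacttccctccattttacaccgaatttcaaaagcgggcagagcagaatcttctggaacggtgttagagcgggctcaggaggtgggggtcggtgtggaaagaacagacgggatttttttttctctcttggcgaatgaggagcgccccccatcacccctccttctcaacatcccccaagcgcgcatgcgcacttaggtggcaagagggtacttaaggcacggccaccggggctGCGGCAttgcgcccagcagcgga
Peg3: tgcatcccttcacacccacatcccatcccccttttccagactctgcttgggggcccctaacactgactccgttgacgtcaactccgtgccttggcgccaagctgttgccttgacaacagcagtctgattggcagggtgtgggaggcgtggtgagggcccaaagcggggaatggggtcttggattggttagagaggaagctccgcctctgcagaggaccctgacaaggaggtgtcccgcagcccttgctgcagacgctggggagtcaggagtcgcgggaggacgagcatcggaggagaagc
Ube3a: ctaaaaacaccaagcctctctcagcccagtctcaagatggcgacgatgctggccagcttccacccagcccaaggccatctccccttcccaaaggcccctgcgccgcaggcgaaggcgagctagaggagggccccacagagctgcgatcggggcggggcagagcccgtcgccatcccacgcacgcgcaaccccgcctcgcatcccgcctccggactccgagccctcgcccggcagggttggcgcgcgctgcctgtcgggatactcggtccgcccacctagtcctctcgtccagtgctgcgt
The Plagl1 window (chr10:13090582-13090881, plus strand) held 26 CpGs, and the Mest (chr6:30737800-30738099, plus strand), Nap1l5 (chr6:58907077-58907376, minus strand) and Nnat (chr2:157559828-157560127, plus strand) windows held 17 each. The Peg3 window (chr7:6730370-6730669, minus strand) held 13 CpGs and the Ube3a window (chr7:59228500-59228799, plus strand) 29, against a median of 7 over all promoter windows. The hexamer, searched on both strands, occurred in 3813 of 32851 windows (11.6%), in 14 of the 55 windows found for 38 of the genes, and in 11 of the 22 windows that overlapped a candidate region. The hexamer holds a CpG, and these shares were not matched for the number of CpGs. Near-identical windows, such as those of 2 Mest starts 3 bp apart, were counted separately. An overlap of any length counted, so the 11 include Copg2, whose start lay in a region at 0% in all 4 libraries. The windows of Airn and Kcnq1ot1, not printed, overlapped candidates and had no match. The printed windows were chosen with the levels known, and a match is a description of the letters, not a binding site. The Peg3 and Ube3a windows had no match, which says only that these letters are not in that stretch.

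Intermediate methylation was commoner at imprinted genes than in the table as a whole, most of all among the short regions. Candidate regions made up 181 of the 1395 complete member regions (12.97%), against 7.80% of all regions. Among the 1951 regions that lay whole within a promoter window, 87.7% held 24 or 25 CpGs. CpGs were not counted in longer regions, so length is used below as a stand-in for CpG density. Among regions of 1000 bp or less, a limit chosen after the data were seen, 68 of 253 at imprinted genes were candidates (26.9%), against 5.04% of all regions of that length. Among longer regions the shares were 113 of 1142 (9.89%) and 8.11%. Short regions of the genome were mostly at one extreme, with 57.1% under 20% and 28.4% over 70% in all libraries, whereas the imprinted genes had 83 (32.8%) and 32 (12.6%) there. Of the 68 short candidates, 38 held or lay within 1000 bp of a member's start, as did 23 of the 113 long ones. Membership of the band itself is a choice on the level and was not tested. The band had 11 candidates with a library within 1 point of its edge (30.6 to 69.96%), and 35 member regions missed it by 2 points at most (28.6 to 71.98%).

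**Figure D1:**
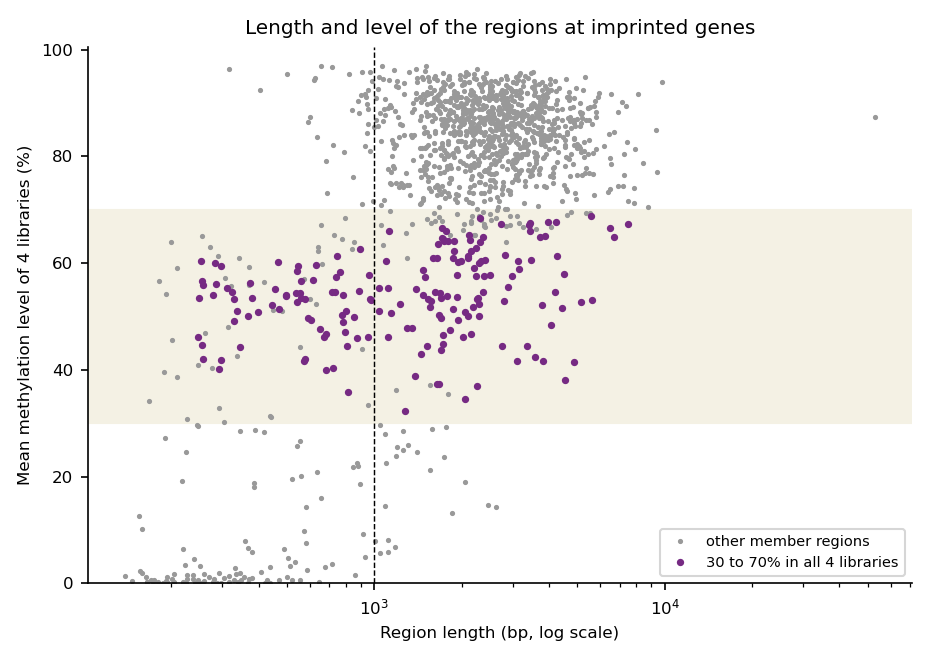
Mean methylation of the 4 libraries (y axis, %) against region length (x axis, bp on a log scale) for the 1395 regions at imprinted genes; purple points are the 181 regions at 30 to 70% in every library, and the dashed line marks 1000 bp. Purple points fill the middle of the range left of the line, where 68 of 253 regions lie in the band.

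A short candidate region was present in 18 of the 19 clusters, and 37 of the 39 genes with regions of their own had a candidate of any length. Such counts grow with the number of regions searched, which reached 210 for Trappc9 and 123 for Ppp1r9a, where 1 was a candidate. In the genome 7.80% of regions, and 5.04% of short ones, lay in the band. No share was computed for other genes or clusters with as many regions, so these 2 counts alone do not set imprinted genes apart. Usp29 and Peg12 had none in their own regions. Only 2 regions were named for Usp29, however, and its RefSeq span held 84 regions, of which 14 were in the band, 1 of them short. The start of Usp29, a deubiquitinase-like gene transcribed divergently from Peg3, is the region it shares with Peg3.

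Among transcripts that start in a maternally methylated region, the regions at the start were mostly at intermediate levels, with a wide scatter between libraries. Kcnq1ot1, the long antisense RNA that silences the Kcnq1 domain, started in a 1230 bp region at 53.3% and 55.2% in the Cre libraries and 51.5% and 49.4% in the control libraries. Its Cre values lay above its control values by a few points. Airn, the antisense RNA that silences Igf2r, had 46.8% and 50.8% in the Cre libraries, against 35.5% and 69.9% in the control libraries, in a 1138 bp region. Here the 2 control libraries lay outside the Cre libraries on either side.

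Mest encodes a hydrolase-like protein, and the 253 bp region that holds its start had 58.4% and 66.0% in the Cre libraries, against 62.2% and 55.4% in the control libraries. The 590 bp region just upstream had 42.8% and 62.6% in the Cre libraries and 36.3% and 57.4% in the control libraries. The groups overlapped in both. At the start of Plagl1, a zinc finger transcription factor, a 310 bp region had 53.0% and 65.3% in the Cre libraries and 41.1% and 62.0% in the control libraries. A 201 bp region beside it missed the band in 1 library of each group, at 26.8% and 67.0% in the Cre libraries and 28.3% and 59.9% in the control libraries. In that region the 2 libraries of a group differed more than the groups did.

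Nnat, a small membrane proteolipid of developing brain, started in a 289 bp region at 53.0% and 63.4% in the Cre libraries, against 72.8% and 56.5% in the control libraries. A 495 bp candidate ended just before that start, at 50.2% and 64.6% in the Cre libraries and 52.0% and 48.7% in the control libraries. The groups overlapped in both. Nap1l5, a nucleosome assembly protein family member, started in a 1292 bp region at 51.2% and 57.7% in the Cre libraries, against 62.6% and 72.4% in the control libraries. There the groups did not overlap, and 1 control library was above the band. The 279 bp candidate next to it had 51.5% and 49.9% in the Cre libraries, against 49.7% and 64.9% in the control libraries, and overlapped between groups. The Mcts2 retrogene inside H13 had 50.0% and 57.1% in the Cre libraries, against 58.8% and 58.1% in the control libraries, over 284 bp. Both Cre values of Mcts2 were below both control values. Zrsr1, a retrogene of a splicing factor inside Commd1, had 66.2% and 63.4% in the Cre libraries and 52.7% and 59.1% in the control libraries over 2337 bp. Snrpn, which encodes a small nuclear ribonucleoprotein of the neuron-enriched SmN type, had 61.3% and 55.3% in the Cre libraries and 55.2% and 42.2% in the control libraries over 2281 bp. At both starts the Cre values were the higher ones.

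Peg3, a Krüppel-type zinc finger gene, has a 680 bp candidate beside its start with 52.8% and 37.0% in the Cre libraries, against 46.8% and 50.1% in the control libraries. Peg10, a retrotransposon-derived gene, and Sgce, which encodes a sarcoglycan, share a bidirectional start. A 448 bp region there had 46.8% and 36.4% in the Cre libraries, against 52.0% and 70.1% in the control libraries, so 1 control library took it just out of the band. The 2 short candidates downstream, of 256 and 283 bp, averaged 54.3% and 58.4% in the Cre libraries and 65.5% and 55.0% in the control libraries.

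Peg13 is a noncoding RNA in an intron of Trappc9. Of the 5 regions in its RefSeq span, 4 were candidates. The 776 bp one had 52.3% and 49.1% in the Cre libraries, against 46.7% and 52.8% in the control libraries, while a 649 bp one had 30.6% and 61.6% in the Cre libraries, against 50.1% and 48.0% in the control libraries. The second shows that a single library can account for most of the spread of a short region. Impact, a regulator of translation, had both its short candidates inside the gene. They averaged 61.2% and 55.3% in the Cre libraries, against 52.9% and 45.1% in the control libraries, with every Cre value above every control value. Inpp5f, an inositol phosphatase gene with an imprinted internal transcript, had 2 inside the gene that averaged 50.8% and 55.0% in the Cre libraries and 49.1% and 51.6% in the control libraries.

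**Figure D2:**
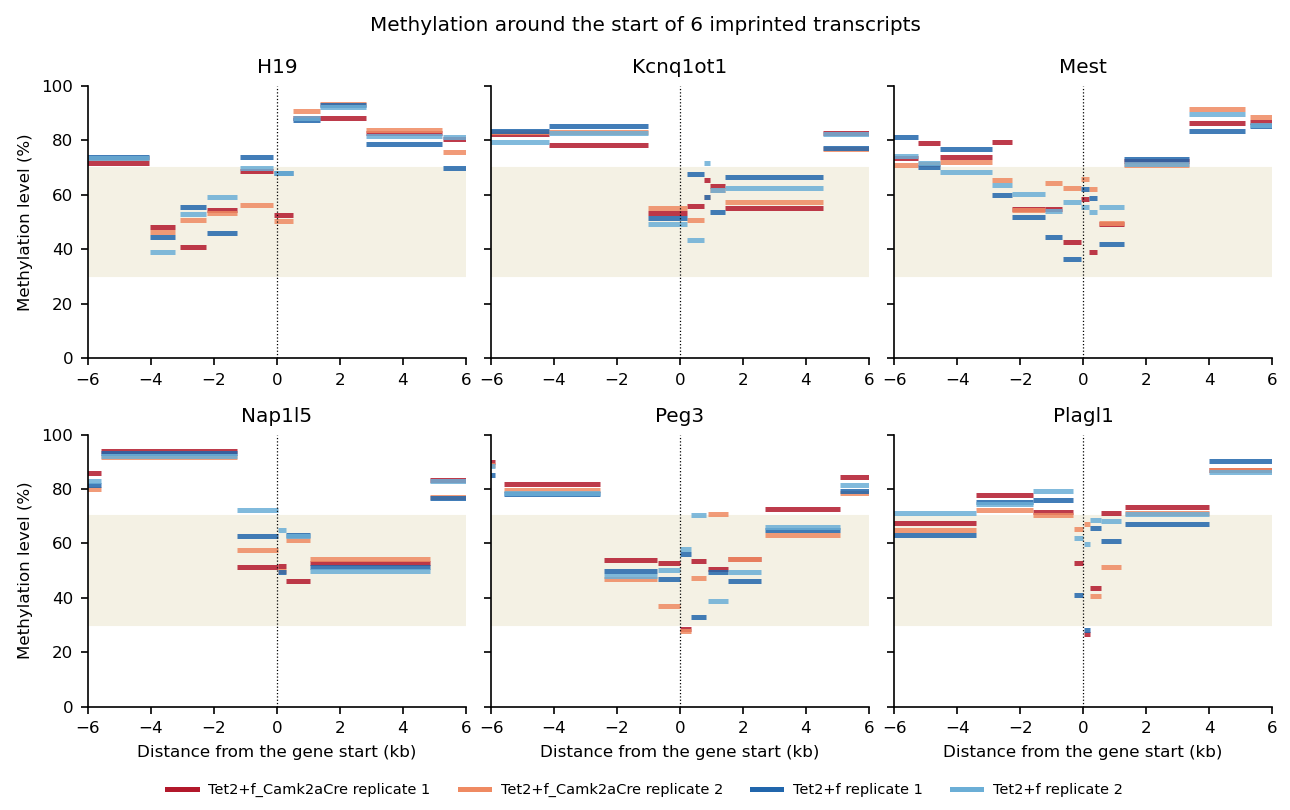
Methylation level (y axis, %) of each region within 6 kb of the start of 6 imprinted transcripts (x axis, kb in the direction of transcription), as 1 bar per library that spans the region; the shaded band marks 30 to 70%. At Nap1l5 and Peg3 the level drops from over 70% upstream towards the band at the start, and at H19 the band is reached upstream of the start.

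Gnas, which encodes the stimulatory G protein alpha subunit and several other imprinted transcripts, held the most candidates: 21 of its 50 regions, of which 17 were short. The 17 averaged 53.0% and 54.9% in the Cre libraries, against 51.1% and 48.2% in the control libraries. Of its 4 starts, the 2 that lie next to each other fell in a 257 bp region at 60.2% and 68.1% in the Cre libraries and 63.6% and 31.4% in the control libraries. The start farthest downstream fell in a 205 bp region at 0% in all 4 libraries. One gene thus held intermediate and unmethylated starts within a few kilobases.

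At H19 and Meg3, near which the paternally methylated regions lie, candidates were found both on the start and upstream of it. H19 is a noncoding RNA whose upstream region binds the insulator protein CTCF on the maternal copy. Upstream of its start lay 3 candidates, and the farthest, 3240 bp before the start, had 48.2% and 46.2% in the Cre libraries and 44.4% and 39.1% in the control libraries. The other 2 had 54.2% and 53.4%, and 40.7% and 50.6%, in the Cre libraries, against 45.9% and 59.1%, and 55.4% and 53.1%, in the control libraries. The groups overlapped in the 978 bp region nearer the start. Meg3, a noncoding RNA of the maternal copy, started in a 671 bp region at 56.6% and 48.3% in the Cre libraries and 41.7% and 38.1% in the control libraries. The 799 bp region just upstream of its start ran the other way, with 46.6% and 49.9% in the Cre libraries and 57.4% and 50.6% in the control libraries.

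Between Dlk1 and Meg3, 34 regions outside the rule were looked at and 2 were in the band, against 7.80% of all regions. They lay 66857 and 31632 bp before the start of Meg3, and whether either belongs to the control region was not tested. The nearer to Meg3 had 58.3% and 52.2% in the Cre libraries and 51.7% and 54.6% in the control libraries. Rasgrf1, an exchange factor for Ras, was the one cluster without a short candidate under the rule, and its start was at 0% in all 4 libraries over 287 bp. Of 14 regions in the 40000 bp before its start, also outside the rule, 3 lay in the band, against the same 7.80%. A 272 bp region 29902 bp before the start had 61.6% and 69.9% in the Cre libraries, against 63.2% and 67.6% in the control libraries.

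Averaged over the short candidates of a cluster, the groups overlapped in 10 of the 18 clusters. The Cre libraries were both higher in 3 (Gnas, Dlk1 and Meg3, Impact) and both lower in 5 (H19 and Igf2, Plagl1, Nap1l5, Mcts2, Ddc). Of single short regions of the table in the band, 17.0% were higher and 15.9% lower without overlap; no such share was computed for means over several regions.

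**Figure D3:**
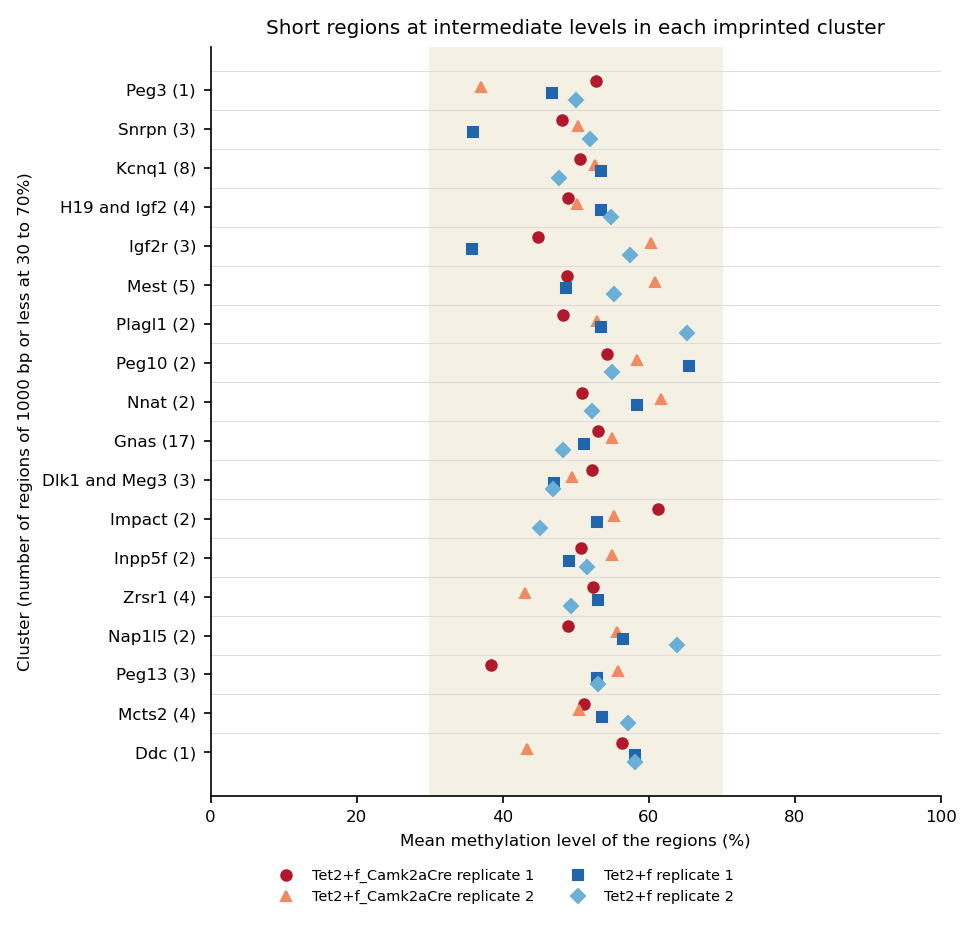
Mean methylation (x axis, %) of the candidate regions of 1000 bp or less in each of 18 imprinted clusters (rows, number of regions in brackets), with 1 mark per library; the shaded band marks 30 to 70%. The marks of the groups overlap in 10 rows, lie higher for Tet2+f_Camk2aCre in 3 and lower in 5, beside 17.0% and 15.9% of all single short regions in the band.

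Other genes of the clusters held short candidates without being known for a germline region at their start. In the Snrpn domain, Ndn, Magel2 and Mkrn3 had 1 each; the first 2 encode MAGE family proteins and the last a ring finger protein. The Ndn region of 544 bp had 54.8% and 64.7% in the Cre libraries, against 35.4% and 55.8% in the control libraries. Magel2 had 42.6% and 32.2% in the Cre libraries, against 37.2% and 47.8% in the control libraries. Mkrn3 had 47.1% and 54.2% in the Cre libraries, against 35.1% and 52.0% in the control libraries. No pair of groups separated. Cdkn1c, a cyclin-dependent kinase inhibitor in the Kcnq1 domain, had 3 short candidates, and that of 297 bp had 46.9% and 45.3% in the Cre libraries, against 39.6% and 35.8% in the control libraries.

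Several members started in short unmethylated regions. Ube3a, the ubiquitin ligase gene silenced on the paternal copy in neurons, had 1.40% and 0% in the Cre libraries and 0% in both control libraries in 1 of the regions at its start. Copg2, a coatomer subunit gene next to Mest, was at 0% in all 4 libraries over 224 bp. Phlda2, Blcap, Trappc9, Inpp5f and Ppp1r9a also started in a region below 6% in all 4 libraries. In Igf2r, whose imprinting depends on the Airn start inside it, the region at its own start had 14.8% and 0% in the Cre libraries, against 7.14% and 3.53% in the control libraries. By contrast Slc22a2, an organic cation transporter gene of the same domain, started at 90.3% and 88.1% in the Cre libraries and 82.0% and 91.9% in the control libraries.

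The longer candidates were steadier. The median range over the 4 libraries was 6.93 points in the 113 long candidates and 16.0 points in the 68 short ones, and it was 10.4 points in all short regions of the table in the same band. Median lengths differed too, at 558 bp for the imprinted short candidates and 837 bp for all short regions in the band, and the part of depth in this spread was not tested. The narrowest range, 0.803 points, was in a 2734 bp region of Igf2r with 67.0% and 67.8% in the Cre libraries and 67.3% and 67.1% in the control libraries. Copg2 had 32.2% and 31.7% in the Cre libraries, against 32.1% and 33.4% in the control libraries, in the 1276 bp beside its unmethylated start. Asb4, a suppressor of cytokine signalling box gene, had 48.9% and 50.5% in the Cre libraries, against 48.6% and 49.4% in the control libraries, over 1949 bp. In all 3 of these stretches the groups overlapped.

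Further genes had long candidates only, given here by the one of narrowest range. Ube3a had 41.3% and 40.7% in the Cre libraries and 42.7% and 41.3% in the control libraries. Calcr, the calcitonin receptor gene, had 37.2% and 37.1% in the Cre libraries and 39.2% and 39.0% in the control libraries. Phlda2, a pleckstrin homology-like domain gene, had 55.2% and 54.0% in the Cre libraries and 56.9% and 54.2% in the control libraries. All 4 libraries lay close together in these 3 genes. Ppp1r9a, which encodes neurabin, had 47.5% and 48.6% in the Cre libraries and 46.3% and 49.3% in the control libraries. Dlk1, a Notch ligand-like gene, had 58.5% and 59.2% in the Cre libraries and 54.5% and 59.0% in the control libraries. Kcnk9, a potassium channel gene, had 58.1% and 63.7% in the Cre libraries and 59.1% and 61.2% in the control libraries. The groups of these 3 genes overlapped. Zim1, a zinc finger gene, shared with the Peg3 flank a region at 55.5% and 51.8% in the Cre libraries and 50.1% and 51.8% in the control libraries. Igf2, the growth factor gene, had 63.5% and 49.3% in the Cre libraries and 59.6% and 59.4% in the control libraries. Slc22a2 had 60.7% and 60.4% in the Cre libraries and 54.0% and 60.7% in the control libraries. Both control values of Igf2 lay between its Cre values.

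Host and neighbouring genes had candidates of narrow range as well, all but that of Kcnq1 over 1000 bp. Kcnq1, a potassium channel gene, had an 811 bp region at its start with 34.2% and 36.5% in the Cre libraries and 36.1% and 36.6% in the control libraries. Trappc9, a trafficking complex gene, had 52.7% and 53.1% in the Cre libraries and 54.2% and 53.5% in the control libraries over 1526 bp. Airn had 52.5% and 52.1% in the Cre libraries, against 52.2% and 50.1% in the control libraries, over 2184 bp. The 4 libraries of each were within a few points. H13, a signal peptide peptidase gene, had 49.3% and 44.7% in the Cre libraries, against 47.3% and 44.9% in the control libraries. Blcap, the gene around Nnat, had 43.3% and 45.7% in the Cre libraries, against 42.0% and 46.7% in the control libraries. Herc3, a ubiquitin ligase gene, had 69.3% and 66.2% in the Cre libraries, against 69.9% and 69.8% in the control libraries. In H13 and Blcap the groups overlapped. Commd1, a copper homeostasis gene, followed with 64.0% and 69.2% in the Cre libraries, against 67.2% and 68.3% in the control libraries. Sgce had 66.0% and 64.5% in the Cre libraries, against 62.1% in both control libraries, and Rasgrf1 had 69.5% and 67.9% in the Cre libraries, against 63.5% and 69.1% in the control libraries. Of these 6 genes, the groups did not overlap in Sgce, higher in the Cre libraries, and Herc3, lower.

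Ddc, the aromatic amino acid decarboxylase gene next to Grb10, had 1 short candidate far inside the gene, at 56.4% and 43.3% in the Cre libraries and 58.1% in both control libraries. Of its 2 starts, the upstream one was highly methylated, at 87.4% and 82.2% in the Cre libraries and 83.4% and 86.9% in the control libraries. The other lay in a 2940 bp region at 70.4% and 67.0% in the Cre libraries, against 78.8% and 75.3% in the control libraries, where the groups did not overlap. Slc22a3, another cation transporter gene, had a 951 bp candidate among its flanking regions, which the table names for Plg. It was at 42.7% and 49.4% in the Cre libraries, against 42.6% and 49.7% in the control libraries. In both groups 1 library lay low and 1 high. Rian and Mirg, noncoding RNAs downstream of Meg3, had 8 of 24 and 2 of 9 regions of their spans in the band. Their span means were 67.6% and 69.4% for Rian and 73.4% and 73.6% for Mirg in the Cre libraries, against 68.3% and 66.4%, and 72.5% and 72.1%, in the control libraries.

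No region of the set differed between the groups past the test. In limma on a log2 ratio of methylated to unmethylated share, fitted over 849014 regions with Benjamini-Hochberg adjustment, 0 regions of the genome and 0 of the members passed an adjusted p of 0.05 (background 0%), with 0.937 as the lowest adjusted value. Without adjustment, 70 of 1395 member regions had p under 0.05 (5.02%), against 4.60% of all regions. Of these, 41 were higher in the Cre libraries (2.94%, background 2.25%) and 29 lower (2.08%, background 2.35%). Both Cre values lay above both control values in 217 member regions (15.6%) and below them in 223 (16.0%), against 15.9% and 16.8% of all regions. The mean was higher in the Cre libraries in 709 member regions (50.8%), against 49.2% of all. These shares were near the background.

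The 181 candidates averaged 53.6% and 55.0% in the Cre libraries, against 53.1% and 54.2% in the control libraries, a difference of 0.652 points, with an SD of 0.930 between the Cre libraries and 0.722 between the control libraries (n = 2 each). Without the second Cre library the difference over the same 181 regions was -0.00562 points, and it was -0.290 points over the 198 regions in the band in the other 3 libraries. The 68 short candidates averaged 50.7% and 53.5% in the Cre libraries and 51.0% and 51.8% in the control libraries, so the groups overlapped. The groups did not overlap in 37 candidates higher in the Cre libraries (20.4%) and 26 lower (14.4%), against 17.4% and 15.6% of all regions in the band. The mean was higher in the Cre libraries in 104 of 181 candidates (57.5%), against 51.9% in the band. At an unadjusted p under 0.05, 8 of the 181 passed (4.42%), 5 higher and 3 lower, against 1.74% of the band. By length these were 6 of the 68 short candidates (8.82%) and 2 of the 113 long ones (1.77%). Short regions are a larger part of the candidates than of the band. No share at this p was computed for short regions of the band alone.

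**Figure D4:**
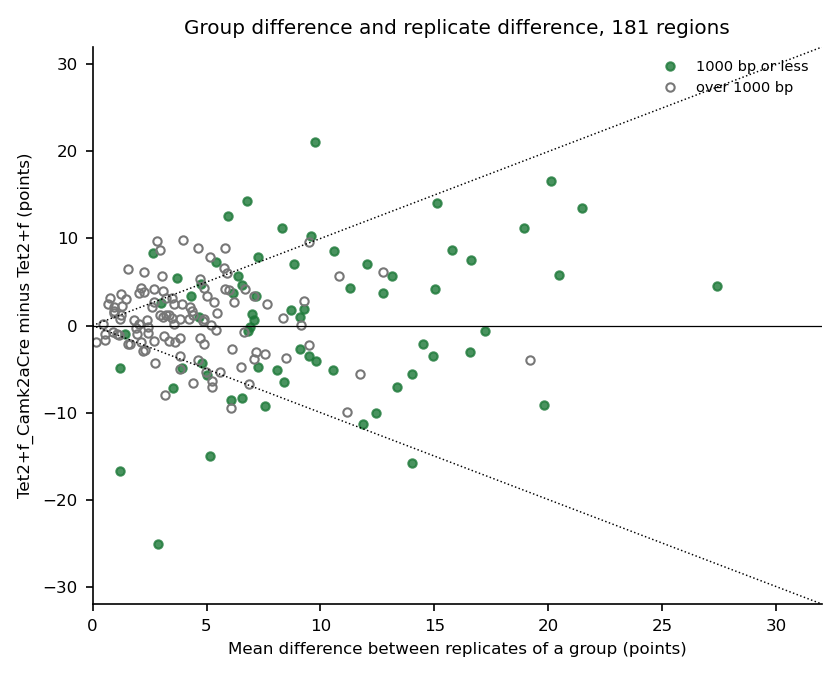
Difference of the group means (y axis, Tet2+f_Camk2aCre minus Tet2+f, points) against the mean difference between replicates of a group (x axis, points) for the 181 candidate regions, filled for 1000 bp or less and open for longer ones. The dotted lines mark a group difference as large as the replicate difference. Beyond them lie 63 of the 181 regions, 21 of them short. With 2 libraries a group, these are the regions whose groups did not overlap, 37 higher and 26 lower in Tet2+f_Camk2aCre. Of all regions in the band 17.4% were higher and 15.6% lower without overlap, and of short ones 17.0% and 15.9%.

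The 5 largest differences among member regions whose groups did not overlap were all in short regions, and each had a limma adjusted p of 0.937. They were chosen for their size, so the values are a description. A 277 bp region of Gnas (chr2:174299653-174299929, mm10) had 56.3% and 69.0% in the Cre libraries, against 29.8% and 6.67% in the control libraries, a difference of 44.4 points. Its 2 control libraries were far apart. The 337 bp region beside the start of Peg3 (chr7:6730080-6730416), which touches the printed window, had 28.6% and 27.95% in the Cre libraries, against 56.0% and 58.0% in the control libraries. The group means were 28.3% ± 0.474 in the Cre libraries and 57.0% ± 1.35 in the control libraries (SD, n = 2 each), and the 680 bp region next to it overlapped between groups.

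A 554 bp region inside Snrpn (chr7:60004318-60004871) had 39.9% and 21.5% in the Cre libraries, against 65.8% and 50.1% in the control libraries. The Snrpn start beside it had the higher values in the Cre libraries. A 324 bp region downstream of the Plagl1 start (chr10:13091062-13091385) had 43.5% and 40.6% in the Cre libraries, against 65.8% and 68.5% in the control libraries, a difference of -25.1 points. The 247 bp region at the Cdkn1c start (chr7:143460882-143461128) had 29.5% and 28.6% in the Cre libraries, against 62.6% and 43.1% in the control libraries. Of these 5, 1 was higher and 4 were lower in the Cre libraries. In each of the 5 genes a neighbouring region had a difference of the other sign, or groups that overlapped. Such neighbours are common anywhere, since the groups separated in only 15.9% (higher) and 16.8% (lower) of all regions.

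Taken as means over the regions of each gene, 0 of the 39 members passed the limma test over 25181 genes, where 0% were called, and the smallest adjusted p among members was 0.817. At an unadjusted p under 0.05, 1 passed, a lower one, against 5.30% of all genes (2.65% higher and 2.65% lower). The groups did not overlap in 5 members higher and 8 lower in the Cre libraries, against 17.1% and 16.0% of all genes. The mean was higher in the Cre libraries in 16 of 39, against 51.1% of all genes, and the median difference was -0.197 points, against 0.0253 over all genes. The sign of the difference was kept without any 1 library in 16 of the 39, which is bound to hold for the 5 and 8 whose groups did not overlap.

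H19 was the member at an unadjusted p under 0.05. Its 3 regions averaged 76.3% and 78.1% in the Cre libraries, against 82.8% and 82.9% in the control libraries, which are means of 77.2% ± 1.29 and 82.9% ± 0.0681 (SD, n = 2 each) and a difference of -5.64 points (limma adjusted p = 0.817). Most of this lay in the 629 bp region at its start, at 52.6% and 50.2% in the Cre libraries and 68.0% and 68.1% in the control libraries, whereas the 3 candidates farther upstream went both ways. Magel2 averaged 60.5% and 62.3% in the Cre libraries, against 63.8% and 66.4% in the control libraries (limma adjusted p = 0.949). Snrpn averaged 72.3% and 71.1% in the Cre libraries and 74.0% and 72.9% in the control libraries (limma adjusted p = 0.962). In all 3 genes both Cre values were below both control values.

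In the other direction, Meg3 averaged 64.8% and 66.5% in the Cre libraries, against 63.4% and 61.3% in the control libraries, a difference of 3.30 points (limma adjusted p = 0.949). Gnas averaged 54.7% and 55.9% in the Cre libraries and 53.4% and 52.8% in the control libraries (limma adjusted p = 0.952). Its difference of 2.24 points became -0.0417 when regions were weighted by length. Igf2r averaged 76.1% and 76.2% in the Cre libraries, against 73.5% and 75.7% in the control libraries (limma adjusted p = 0.995). Igf2, by comparison, averaged 22.6% and 23.6% in the Cre libraries and 22.5% and 23.7% in the control libraries.

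**Figure D5:**
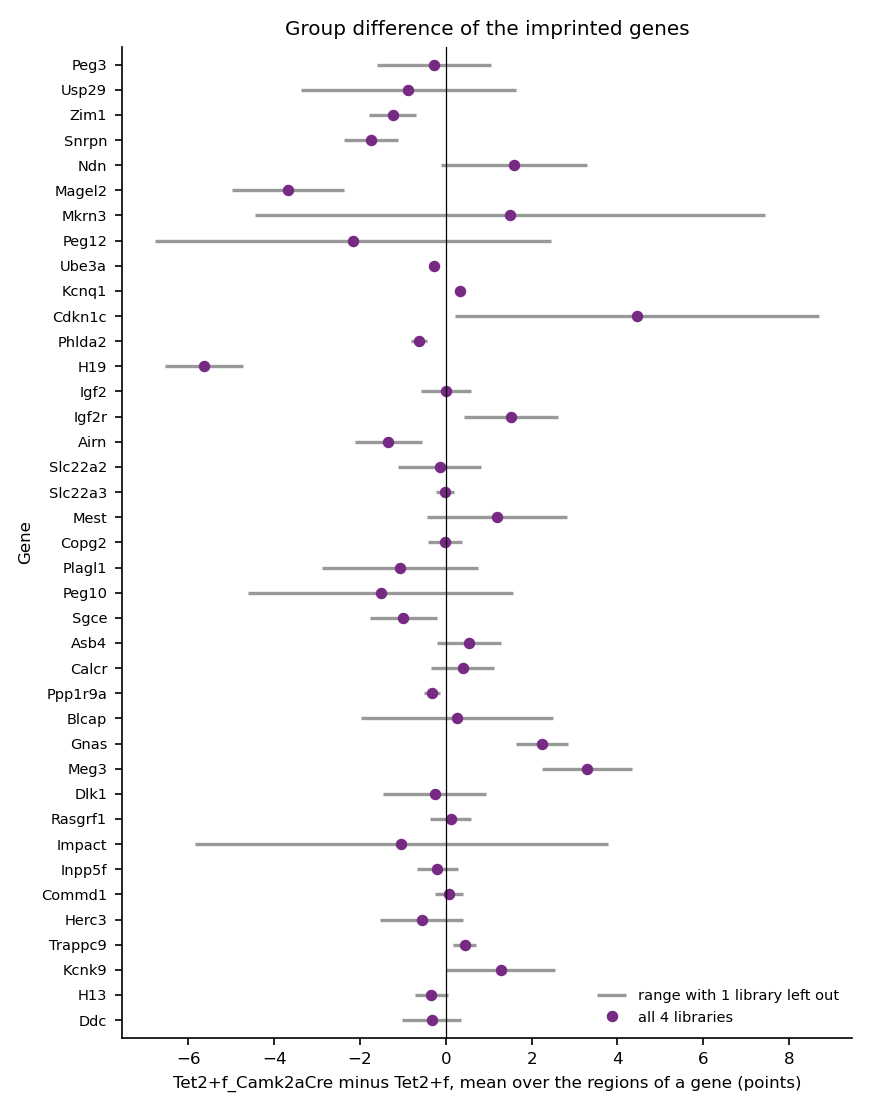
Difference of the group means (x axis, Tet2+f_Camk2aCre minus Tet2+f, points) of the mean level over the regions of each of 39 imprinted genes (rows), as points, with the lowest and highest value after leaving out 1 library as lines. H19 is farthest to the left at -5.64 points, and the lines of 16 genes stay on one side of 0.

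Around the gene starts, from 2000 bp before to 500 bp after, 61 distinct sets of regions were measured for 63 starts of 46 members. None passed the limma test over 34713 starts (background 0%, smallest adjusted p among members 0.931), and 5 passed an unadjusted p under 0.05, against 5.32% of all starts (2.56% higher and 2.76% lower). Higher in the Cre libraries was 1 start of Meg3, with 58.2% and 55.0% in the Cre libraries and 48.8% and 47.5% in the control libraries. Lower were H19, Mcts2, Peg10 and 1 start of Snrpn, where Mcts2 had 58.8% and 59.3% in the Cre libraries and 64.5% and 66.4% in the control libraries. The groups did not overlap in 7 starts higher and 14 lower, against 17.0% and 16.7% of all starts, and 20 of the 61 had the higher mean in the Cre libraries, against 51.1%.

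Genes outside the set were read for comparison. Of 30 further imprinted genes, 26 were measured, 0 passed the limma test, 1 had an unadjusted p under 0.05 (Slc22a18, higher in the Cre libraries) and 10 had the higher mean in the Cre libraries, with a median difference of -0.168 points. Among 14 factors that set or keep imprints, such as Zfp57, Trim28, Dnmt1 and Ctcf, 0 passed, 9 had the higher mean in the Cre libraries, and the median difference was 0.331 points. Dnmt3l, a cofactor of de novo methylation in germ cells, was the 1 factor with an unadjusted p under 0.05 in limma. It had 84.1% and 83.5% in the Cre libraries and 82.1% and 82.5% in the control libraries. Of all genes, 5.30% had such a p and 51.1% had the higher mean in the Cre libraries, so 1 gene in either list is near the background. The groups did not overlap in 1 higher and 4 lower of the 26, and in 5 higher and 1 lower of the 14, against 17.1% and 16.0% of all genes.

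The libraries were alike over the whole table, at 76.0% and 75.8% in the Cre libraries and 75.7% and 76.1% in the control libraries. As a check of the labelled tissue, promoters of 4 neuron markers averaged 25.1% and 26.3% in the Cre libraries, against 26.6% and 26.1% in the control libraries, and those of 3 CA1 pyramidal markers 29.1% and 25.7%, against 27.4% and 26.2%. Promoters of 3 microglia markers averaged 76.9% and 74.0% in the Cre libraries and 74.3% and 76.9% in the control libraries, those of 3 astrocyte markers 69.5% and 72.7%, against 69.2% and 69.4%, and those of 3 oligodendrocyte markers 63.9% and 66.4%, against 66.4% and 66.2%. Of 2 endothelial markers the mean was 62.6% and 61.1% in the Cre libraries and 63.9% and 64.9% in the control libraries. Values within a list ranged from 4.04 to 65.7% for neuron and 7.72 to 51.1% for CA1 pyramidal markers. They ranged from 68.1 to 82.2% for microglia, 55.7 to 86.4% for astrocyte, 33.6 to 86.6% for oligodendrocyte and 38.1 to 88.7% for endothelial markers. The lists therefore overlap, and the means alone do not sort single markers. Methylation does not show the Tet2 allele, so the labels could not be checked on it, and the part of cell composition in any difference was not tested.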

How the data were processed

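The 4 CA1 libraries were bisulfite converted and sequenced genome-wide. The deposited values are percent methylation per region and library, made by the authors and aligned to mm10. Bismark 0.19.0, Trim Galore 0.4.5, FastQC 0.11.5 and an unversioned edgeR are named in the submitters' processing notes. The way regions were drawn and CpGs averaged, and any coverage minimum, are not given in the sources used. No counts or coverage stand in the table, so the depth per region is unknown and coverage could not be filtered.

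The 158 of 849172 regions with an incomplete set of values were not used. Levels were tested with limma 3.58.1 (R 4.3.3). The level as a share, plus an offset of 0.01, was divided by 1 minus the level plus the same offset and taken to log2. The fit set 2 Tet2+f_Camk2aCre libraries against 2 Tet2+f libraries, two-sided, with Benjamini-Hochberg adjustment over all regions, all genes (the mean over a gene's regions) or all gene starts from RefSeq. Starts that overlapped the same regions were counted once. The calculation was tested on simulated data. With 2 libraries a group no exact permutation test can pass 0.05, and none was run. Named with values were members with a textbook germline region, the candidate regions of narrowest range in each gene, the 5 largest differences between groups that did not overlap, and the 3 genes of smallest p in each direction. Other regions were named after their values were seen. The members and lists were chosen with earlier results of these data known.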

Additional observations from a re-analysis of the deposited data

How the results depend on the processing

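The region and gene tests called 0 in every alternative run (12 for regions, 13 for genes), which changed the offset, the prior variance, the test scale, the filters and the libraries used, and 0 members were called in any of the 42 settings. The replicate block, a fit with the replicate number as a block, also gave 0 regions, 0 genes and 0 starts. The correlation of the replicate 1 minus replicate 2 differences of the groups was 0.00648 over regions, 0.0490 over genes and 0.0340 over starts. These values do not settle whether same-numbered libraries were paired, and the labels name no pairing. The start test gave 3 calls with a trended, robust prior variance and 8 when starts that share regions were counted separately, an alternative chosen after seeing the data, with 0 members among either. The count of candidates, 181, was 107 at 35 to 65%, 58 at 40 to 60%, 273 when only the mean had to lie in the band, and 68 or 85 for regions of at most 1000 or 1500 bp, both chosen after seeing the data. Leaving out each library in turn gave 192 to 209. The candidate mean difference of 0.652 points was -0.290 to 1.10 with 1 library left out and the band applied again to the other 3 (192 to 209 regions), and -0.00562 to 1.31 over the same 181 regions, an alternative chosen after seeing the data. Of 133 alternative values of the 11 named genes and regions, 132 kept their direction and 0 passed the threshold. The exception was Gnas weighted by length, at -0.0417. Most of the kept directions were fixed in advance. The difference is taken in percent, so a change of offset, test scale, prior variance or block leaves it as it is. All 11 had groups that did not overlap, so leaving out 1 library could not reverse them either. A coverage minimum was not run, since the table holds no counts.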
